A study of Drosophila melanogaster with 8 samples.

Results

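Mitochondrial ribosomal protein genes were taken from the gene table of the fly head RNA-seq by name, as every gene whose symbol starts with mRpL or mRpS followed by a number. The rule found 72 genes of the 13982 in the table, 46 named for the large subunit and 26 for the small subunit. All 72 had enough reads to be among the 9986 genes tested, with 71 to 2391 reads per gene and library. The 4 ND-75KD libraries came from flies carrying nSyb-Gal4 and the RNAi line HMS00853 against ND-75, which encodes a subunit of the NADH-oxidising module of respiratory complex I. The 4 Control libraries carried nSybGal4 over w[1118] and lacked the RNAi line. Every library was made from 20 heads of 2 day old flies, 10 male and 10 female.

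nSyb-Gal4 drives expression in neurons, whereas whole heads also hold glia, fat body and muscle, so a difference in a head library cannot be assigned to neurons. In these bulk samples fewer cells of a type and less RNA per cell cannot be told apart. Some knockdown by the RNAi line alone, in the absence of Gal4, is described by the study, and its text pairs the driver with Tub-Gal80ts, which the labels do not name. Whether each pool of heads had its own cross is not given in the sources used here, and p-values cover only the spread among pools. ND-75 itself had 316, 313, 282 and 312 counts per 1000000 reads (CPM) in ND-75KD replicates 1 to 4, against 578, 562, 680 and 684 CPM in Control replicates 1 to 4, so the labels fit the targeted gene in every library.

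The mitochondrial ribosome translates the few messages of the mitochondrial genome, all of which in flies encode subunits of the respiratory chain and the ATP synthase. Its 2 rRNAs are transcribed inside the organelle, while its proteins are encoded in the nucleus, made on cytosolic ribosomes and imported. Many of these proteins descend from bacterial ribosomal proteins, the others belong to mitochondria, and in mammals the particle is richer in protein than the bacterial one. In humans, mutations in several of these genes cause combined oxidative phosphorylation deficiency, with encephalopathy or cardiomyopathy.

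The scale of the comparison and 1 library decide much of what the 72 genes show. CPM values here are given after TMM scaling, which assumes that most genes do not differ between the genotypes. On this scale the 72 genes together had 1420, 1355, 1353 and 1412 CPM in ND-75KD replicates 1 to 4, against 1565, 2447, 1813 and 1552 CPM in Control replicates 1 to 4 (1385 ± 35.9 in ND-75KD and 1844 ± 419 in Control, SD, n = 4 each). All 4 ND-75KD libraries were below all 4 Control libraries, and Control replicate 2 stood far above the other 3. As a plain share of all counted reads, with no such scaling, the genes had 1592, 1552, 1517 and 1588 unscaled CPM in ND-75KD replicates 1 to 4, against 1549, 1592, 1703 and 1578 unscaled CPM in Control replicates 1 to 4, and the groups overlapped.

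Control replicate 2 had 35.3% of its counted reads on mitochondrially encoded genes, against 9.70% to 13.4% in the ND-75KD libraries and 9.16% to 14.5% in the other Control libraries. As a share of reads on nuclear genes only, the 72 genes had 1780, 1719, 1724 and 1833 unscaled CPM in ND-75KD replicates 1 to 4, against 1725, 2461, 1991 and 1737 unscaled CPM in Control replicates 1 to 4. On that scale too the groups overlapped, and Control replicate 2 was again the highest. Library totals were 17448199 to 24071517 counts in ND-75KD and 21758154 to 24680283 in Control. The scaling factor of Control replicate 2 was 0.651, whereas those of the ND-75KD libraries were 1.12 to 1.15 and those of the other Control libraries 0.940 to 1.02. The scale sets the zero of every fold change below, and each is therefore read relative to the typical tested gene of these heads.

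**Figure D1:**
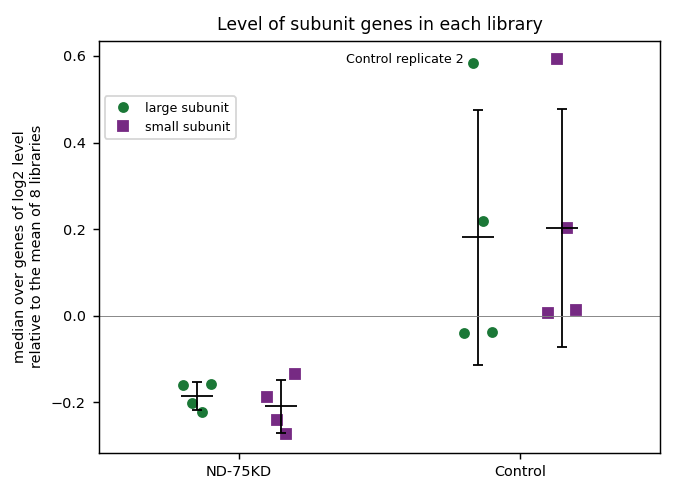
Median over the 46 large subunit genes (green circles) and the 26 small subunit genes (purple squares) of the log2 TMM-scaled level in each library, relative to each gene's mean over the 8 libraries; black bars give the mean ± SD of 4 libraries. The ND-75KD libraries lie between -0.27 and -0.14, and Control replicate 2 lies at 0.58 for the large and 0.59 for the small subunit.

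Transcripts of both subunits of the mitochondrial ribosome lay below the typical gene in ND-75KD heads. The log2 fold change, ND-75KD over Control, was below 0 for 71 of the 72 genes, with a median of -0.41, against a median of -0.01 over all tested genes. The medians were -0.40 for the large subunit and -0.47 for the small subunit. In edgeR's quasi-likelihood test with Benjamini-Hochberg adjustment over all tested genes, 27 of 72 genes (37.5%) fell at an adjusted p under 0.05, against 18.9% of all tested genes. These were 17 of 46 large subunit genes and 10 of 26 small subunit genes. At an unadjusted p under 0.05, 42 genes were lower, against 24.7% of all tested genes. No member rose at the adjusted threshold, against 14.3% of all tested genes that did. At an unadjusted p under 0.05 the count of higher members was 1 (against 19.9%), and DESeq2 also called 1 (against 14.8%), both times mRpL50.

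The count of 27 rested on which libraries were used and on the scaling. Without ND-75KD replicate 2 it was 10 (13.9% of members, against 13.9% of tested genes), without ND-75KD replicate 3 it was 9 (12.5%, against 12.9%), and without Control replicate 3 it was 10 (13.9%, against 13.1%), so in these 3 fits the share of members called was near that of all tested genes. It was 15 without ND-75KD replicate 4 (20.8%, against 14.0%), 18 without ND-75KD replicate 1 (against 15.6%), 21 without Control replicate 2 (29.2%, against 19.0%), 34 without Control replicate 1 (47.2%, against 18.6%) and 39 without Control replicate 4 (54.2%, against 19.7%). Of the 27 members, 7 kept the call in all 8 of these fits and 20 lost it in at least 1. With library totals as the only scaling the median over all tested genes moved to 0.31 and that of the members to -0.048, and 1 member was called lower (against 6.34% of tested genes) and 1 higher (against 24.9%). Of the 12 members with the smallest adjusted p, that scaling left mRpL49 called, and totals over nuclear genes, where 6 members and 10.7% of tested genes were lower, left mRpS9, mRpS22, mRpL45, mRpL51, mRpL2 and mRpL49 called. Over all genes, plain library totals gave 633 lower and 2487 higher calls, against 1885 lower and 1429 higher calls with TMM. Without Control replicate 2 the members' median was -0.26, at -0.25 for the large and -0.28 for the small subunit, and 20 of the 21 members then called were among the 27.

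**Figure D2:**
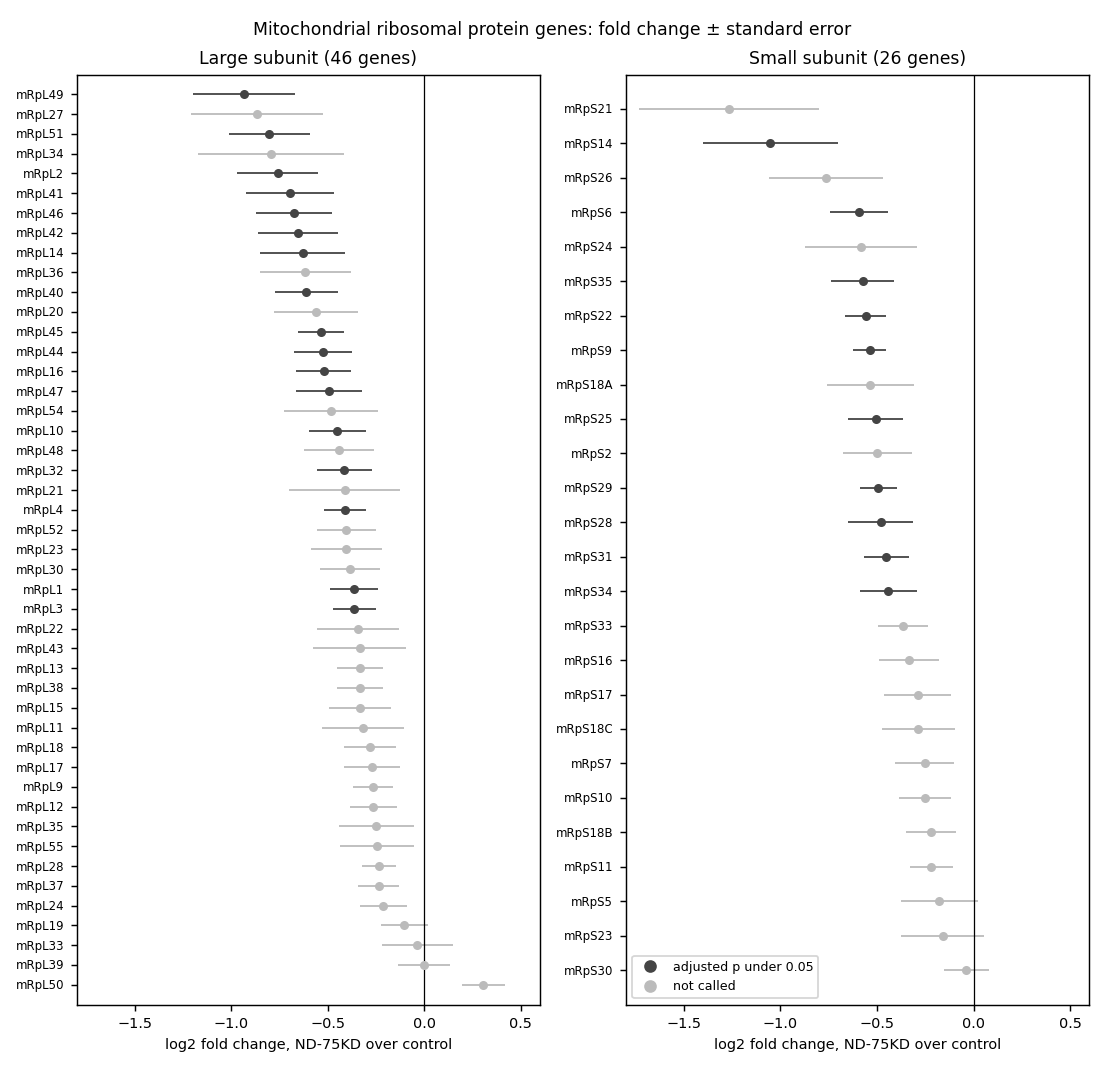
Log2 fold change, ND-75KD over Control, of each of the 46 large subunit genes (left) and 26 small subunit genes (right), with 1 standard error on each side; dark points have an adjusted p under 0.05. All but mRpL50 lie below 0, from -1.27 (mRpS21, not called) to 0.31 (mRpL50, not called).

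Every ND-75KD library was below every Control library for 28 of the 72 genes, against 19.0% of all tested genes, and above for 1, against 17.2%. Of the 27 called genes, 20 had groups that did not overlap. With Control replicate 2 left out, the ND-75KD libraries were all below the other 3 Controls for 29 members, against 22.2% of tested genes, and above for 1, against 20.0%. Control replicate 2 was the highest of the 8 libraries for 65 of 72 members, and an ND-75KD library was the lowest for 56. mRpS9, mRpS18B and mRpS30 were among the genes for which Control replicate 2 was the lowest Control library.

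**Figure D3:**
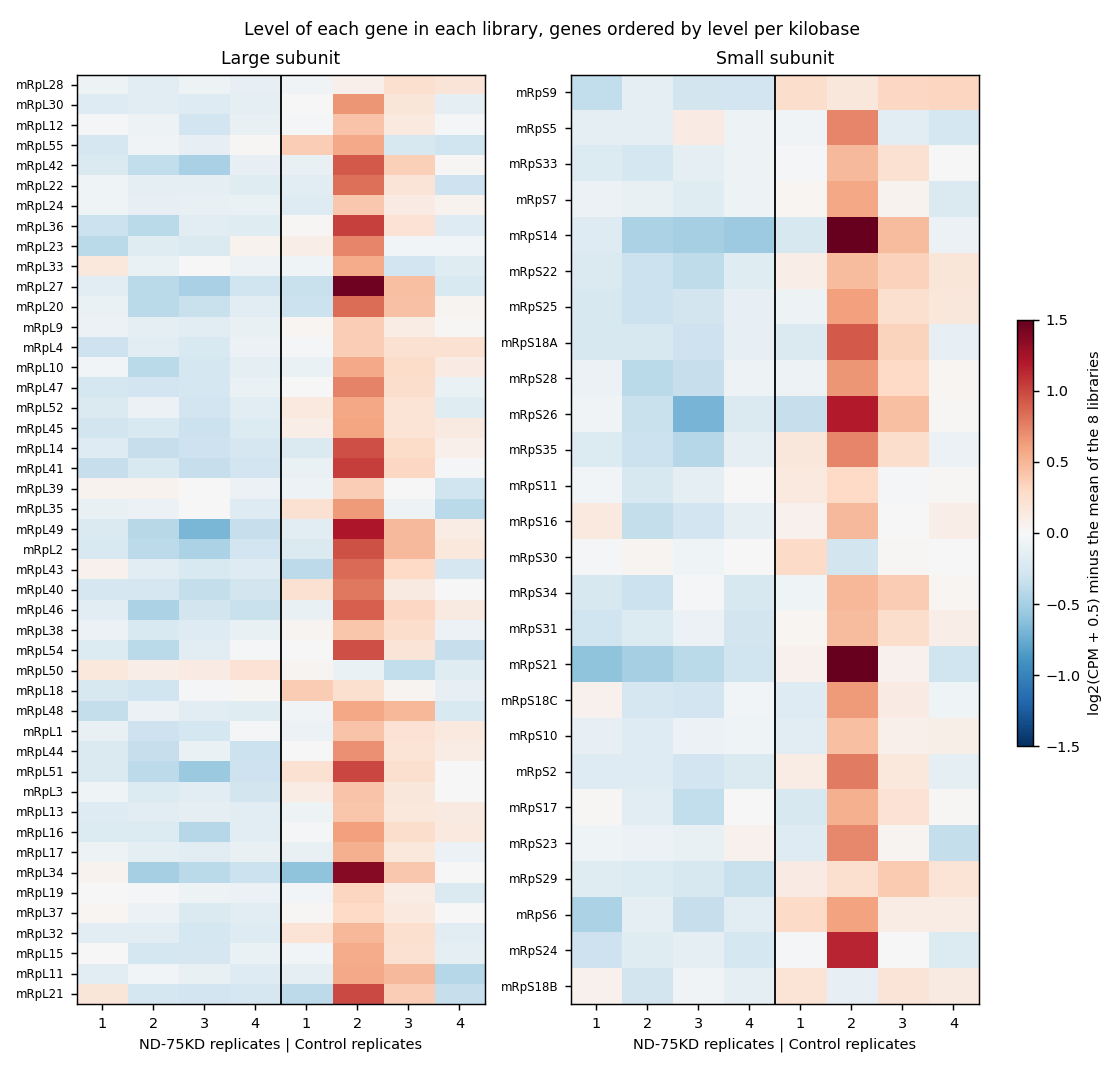
TMM-scaled level of each gene in each library as log2(CPM + 0.5) minus the gene's mean over the 8 libraries, with large subunit genes on the left, small subunit genes on the right, and genes ordered from the highest level per kilobase at the top; ND-75KD replicates 1 to 4 are left of the black line and Control replicates 1 to 4 right of it. The column of Control replicate 2 is the highest for 65 of 72 genes.

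Among the small subunit genes, mRpS9 had the smallest adjusted p of all 72. It encodes the counterpart of bacterial S9, whose tail reaches the tRNA in the peptidyl site. mRpS9 (FBgn0037529, 3R:7889277-7902667, minus strand) had 47.6, 55.7, 50.9 and 50.3 CPM in ND-75KD replicates 1 to 4, against 74.1, 69.2, 76.7 and 76.8 CPM in Control replicates 1 to 4. The groups did not overlap, and Control replicate 2 was here the lowest Control. Its log2 fold change was -0.54 (SE 0.09, adjusted p = 0.00121), and -0.57 without Control replicate 2. Of its exon bases 25.1% lie under exons on the opposite strand, where ArgRS-m and wtrw overlap its span. The share of each of these genes was not separated. A strand setting of the counting is not given in the sources used here, so how reads from that stretch were counted is not known.

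mRpS22 and mRpS29 belong to the proteins that mitochondrial ribosomes have and bacterial ones lack. mRpS29 is the fly counterpart of DAP3, a GTP-binding protein of the small subunit, and human MRPS22 is a gene of combined oxidative phosphorylation deficiency. mRpS22 had 33.3, 31.1, 29.8 and 34.2 CPM in ND-75KD replicates 1 to 4, against 41.7, 54.0, 49.6 and 44.0 CPM in Control replicates 1 to 4 (log2 fold change -0.56, SE 0.11, adjusted p = 0.00302). mRpS29 had 18.4, 18.1, 17.7 and 16.5 CPM in ND-75KD replicates 1 to 4, against 22.8, 24.8, 27.5 and 24.1 CPM in Control replicates 1 to 4 (-0.49, SE 0.10, adjusted p = 0.00370). For both genes the groups were separate, and both stayed called whichever library was left out.

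mRpS31, another protein particular to mitochondria, and mRpS6, a homologue of bacterial S6, also fell. mRpS31 had 19.9, 21.4, 23.1 and 20.2 CPM in ND-75KD replicates 1 to 4, against 25.2, 34.4, 29.8 and 26.5 CPM in Control replicates 1 to 4 (log2 fold change -0.45, SE 0.12, adjusted p = 0.0141). mRpS6 had 6.16, 7.90, 6.80 and 7.83 CPM in ND-75KD replicates 1 to 4, against 10.8, 13.6, 9.54 and 9.54 CPM in Control replicates 1 to 4 (-0.59, SE 0.15, adjusted p = 0.0133). Neither gene's groups overlapped. When a trend of counts on gene length was removed, mRpS31 stayed called, while the adjusted p of mRpS6 was 0.062.

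The other small subunit genes that passed were mRpS14, mRpS25, mRpS28, mRpS34 and mRpS35. Over the 8 fits that leave out 1 library, mRpS28 and mRpS34 kept the call in 2, and mRpS25 and mRpS35 in 5. mRpS14 had the largest fold change of all called members. It is named for its value, outside the rule that chose the others described one by one. mRpS14 had 18.6, 15.3, 14.9 and 14.5 CPM in ND-75KD replicates 1 to 4, against 17.97, 64.36, 29.85 and 20.06 CPM in Control replicates 1 to 4 (log2 fold change -1.05, SE 0.35, adjusted p = 0.040). The groups overlapped, and most of the difference came from Control replicates 2 and 3. It was -0.51 without Control replicate 2 (adjusted p = 0.0389), and it was not called when Control replicate 3 or any 1 of the ND-75KD libraries was left out (adjusted p 0.0609 to 0.0952). Of its exon bases 32.0% are shared with Naa15-16 on the opposite strand. mRpS21 had the largest fold change of all members and was not called (-1.27, SE 0.47, adjusted p = 0.059). Its level in Control replicate 2 was 30.5 CPM, against 5.90 to 7.74 CPM in the other Controls and 4.67 to 5.91 CPM in ND-75KD, and the fold change was -0.42 without that library (adjusted p = 0.0521). It passed without Control replicate 1 (adjusted p = 0.0492) or Control replicate 4 (adjusted p = 0.0248). Of the exon bases of mRpS21, 48.0% are shared with CG8870 on the opposite strand. It had 432 reads in Control replicate 2 and 94 to 189 in each of the other libraries.

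**Figure D4:**
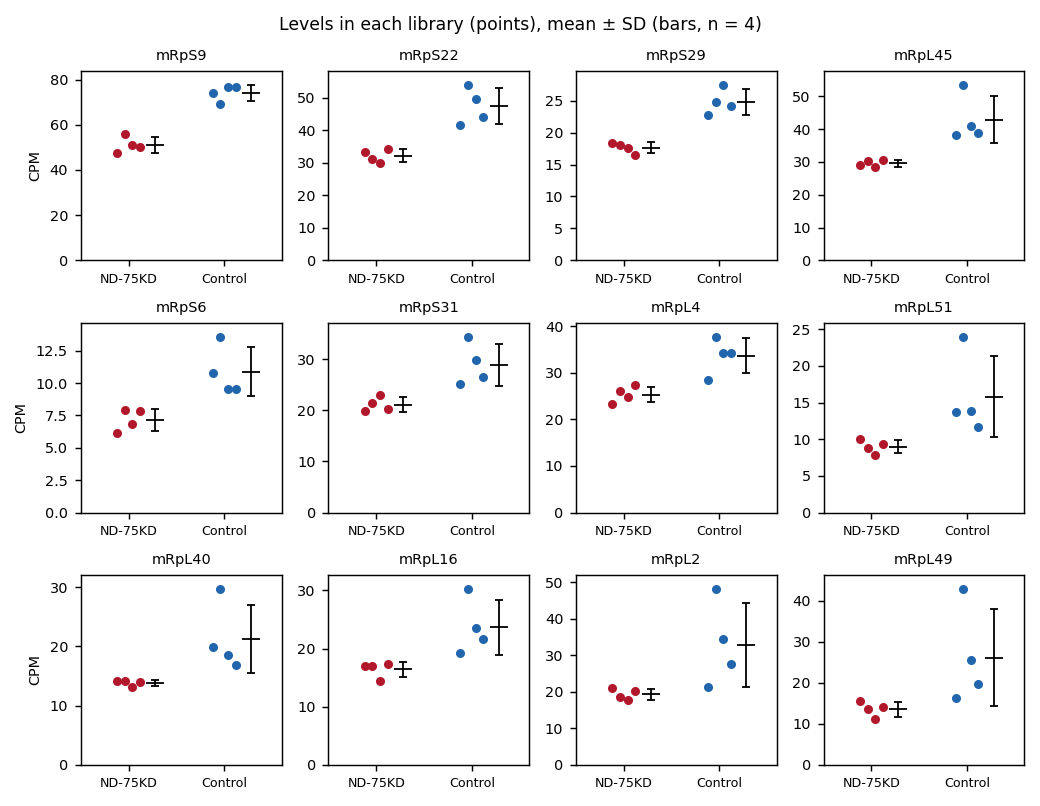
TMM-scaled level (CPM, axes from 0) of the 12 members with the strongest tests, in ND-75KD (red, left in each panel) and Control (blue, right), 1 point per library in replicate order and bars for the mean ± SD of 4 libraries. ND-75KD and Control do not overlap for any of the 12, and the highest blue point of mRpL2 (48.1 CPM) and mRpL49 (42.8 CPM) is Control replicate 2.

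The large subunit gene with the strongest test was mRpL45, whose mammalian counterpart sits by the exit of the peptide tunnel and ties the ribosome to the inner membrane. mRpL45 had 29.1, 30.3, 28.4 and 30.6 CPM in ND-75KD replicates 1 to 4, against 38.2, 53.5, 41.1 and 38.9 CPM in Control replicates 1 to 4 (log2 fold change -0.53, SE 0.12, adjusted p = 0.00672). Without Control replicate 2 it was -0.41 (adjusted p = 0.0029). The ND-75KD libraries were nearly equal and lay below every Control. Of the other genes at the tunnel exit, mRpL47, the counterpart of bacterial L29, also passed (-0.49, SE 0.17, adjusted p = 0.0469), though not without Control replicate 2 (-0.29, adjusted p = 0.0636), Control replicate 3 or any 1 of the ND-75KD libraries (adjusted p 0.0693 to 0.108). mRpL22, mRpL23 and mRpL24 had fold changes of -0.34, -0.40 and -0.21 and did not pass.

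mRpL2, mRpL4 and mRpL16 are the homologues of bacterial proteins at the core of the large subunit, near the peptidyl transferase centre, along the tunnel and by the aminoacyl-tRNA site. mRpL4 had 23.3, 26.0, 24.7 and 27.3 CPM in ND-75KD replicates 1 to 4, against 28.5, 37.7, 34.3 and 34.3 CPM in Control replicates 1 to 4 (log2 fold change -0.41, SE 0.11, adjusted p = 0.0148). mRpL16 had 16.98, 16.95, 14.48 and 17.35 CPM in ND-75KD replicates 1 to 4, against 19.2, 30.2, 23.6 and 21.6 CPM in Control replicates 1 to 4 (-0.52, SE 0.14, adjusted p = 0.0179). In both genes the lowest Control was only slightly above the highest ND-75KD library. mRpL2 had 20.9, 18.7, 17.6 and 20.1 CPM in ND-75KD replicates 1 to 4, against 21.2, 48.1, 34.6 and 27.6 CPM in Control replicates 1 to 4 (-0.76, SE 0.21, adjusted p = 0.0198). Its Controls spread more than 2-fold, and without Control replicate 2 the fold change was -0.52 (adjusted p = 0.0212). Leaving out Control replicate 3 took mRpL4 (adjusted p = 0.0519) and mRpL2 (adjusted p = 0.0555) over 0.05, as did leaving out ND-75KD replicate 3 for mRpL16 (adjusted p = 0.0599) and mRpL2 (adjusted p = 0.060) and leaving out ND-75KD replicate 2 for mRpL2 (adjusted p = 0.0524).

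mRpL40, mRpL49 and mRpL51 encode large subunit proteins that bacteria lack. mRpL51 had 10.0, 8.80, 7.80 and 9.34 CPM in ND-75KD replicates 1 to 4, against 13.8, 23.9, 13.9 and 11.6 CPM in Control replicates 1 to 4 (log2 fold change -0.80, SE 0.21, adjusted p = 0.0151). mRpL40 had 14.1, 14.2, 13.1 and 13.9 CPM in ND-75KD replicates 1 to 4, against 19.9, 29.7, 18.6 and 16.8 CPM in Control replicates 1 to 4 (-0.61, SE 0.16, adjusted p = 0.0171). ND-75KD libraries of mRpL40 were nearly equal, and the spread was in Control. mRpL49 had 15.5, 13.5, 11.1 and 14.2 CPM in ND-75KD replicates 1 to 4, against 16.2, 42.8, 25.6 and 19.7 CPM in Control replicates 1 to 4 (-0.93, SE 0.26, adjusted p = 0.0213). Without Control replicate 2 the fold change of mRpL49 was -0.59 (adjusted p = 0.0174), and of mRpL51 it was -0.54 (adjusted p = 0.0073). Without ND-75KD replicate 3 neither mRpL40 (adjusted p = 0.0523) nor mRpL49 (adjusted p = 0.0656) was called, and without ND-75KD replicate 2 mRpL49 was not (adjusted p = 0.0515). mRpL49 was also the only member called lower when library totals alone set the scale (-0.52, adjusted p = 0.0479).

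The other large subunit genes that passed were mRpL1, mRpL3, mRpL10, mRpL14, mRpL32, mRpL41, mRpL42, mRpL44, mRpL46 and mRpL47, with fold changes from -0.36 (mRpL3 and mRpL1) to -0.69 (mRpL41). None of them kept the call in all 8 fits that leave out 1 library. mRpL1 (adjusted p = 0.0461) and mRpL32 (adjusted p = 0.0464) kept it in 1 such fit, and mRpL14 (adjusted p = 0.0478) in 2. The groups overlapped for these 3 genes, and mRpL1 and mRpL32 were not called with the length trend removed. mRpL44 has the fold of an RNase III enzyme, and its human counterpart is mutated in a mitochondrial cardiomyopathy.

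mRpL50 went the other way. Chosen after its values were seen, it had 17.9, 17.2, 17.5 and 18.7 CPM in ND-75KD replicates 1 to 4, against 16.5, 14.9, 12.3 and 14.0 CPM in Control replicates 1 to 4. All 4 ND-75KD libraries were above all Controls, and the log2 fold change was 0.31 (SE 0.11, adjusted p = 0.0536). With the length trend removed it was 0.50 (adjusted p = 0.0326), the only member called higher in that fit. It also passed without Control replicate 1 (0.42, adjusted p = 0.0159) and without Control replicate 2 (0.33, adjusted p = 0.0474). mRpL39 and mRpL33 were nearest to no difference, at 0.00 and -0.04, with adjusted p of 0.986 and 0.891.

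The stalk recruits translation factors to the ribosome: mRpL10 is its base, mRpL12 its mobile arm, and mRpL11 lies beside it in the GTPase-associated centre. mRpL10 had 25.1, 19.3, 21.4 and 23.2 CPM in ND-75KD replicates 1 to 4, against 23.9, 38.6, 31.3 and 28.03 CPM in Control replicates 1 to 4 (log2 fold change -0.45, SE 0.15, adjusted p = 0.0387). It was the stalk gene that passed, and it lost the call without Control replicate 2 (-0.31, adjusted p = 0.0646), Control replicate 3 or any of ND-75KD replicates 2, 3 and 4 (adjusted p 0.072 to 0.110). mRpL12 had 30.9, 30.0, 25.8 and 29.3 CPM in ND-75KD replicates 1 to 4, against 30.9, 42.6, 34.9 and 31.1 CPM in Control replicates 1 to 4 (-0.26, SE 0.12, adjusted p = 0.117). mRpL11 had 8.24, 9.002, 8.56 and 8.05 CPM in ND-75KD replicates 1 to 4, against 8.43, 14.0, 13.2 and 6.79 CPM in Control replicates 1 to 4 (-0.32, SE 0.21, adjusted p = 0.273). Its groups overlapped, and its Controls fell into a higher and a lower pair. With 1 library left out it lay between -0.49 (without Control replicate 4) and -0.15 (without Control replicate 3), and mRpL12 was -0.15 without Control replicate 2. With library totals as the only scaling the signs of mRpL11 and mRpL12 turned, to 0.055 and 0.094.

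Flies, like mammals, have 3 genes named for bacterial S18. In mammals the product of S18C takes the place of bacterial S18, that of S18B lies elsewhere in the small subunit, and that of S18A is part of the large subunit. mRpS18A had 11.91, 11.95, 11.35 and 13.00 CPM in ND-75KD replicates 1 to 4, against 12.16, 27.20, 18.01 and 13.02 CPM in Control replicates 1 to 4 (log2 fold change -0.53, SE 0.23, adjusted p = 0.0913). mRpS18B had 8.49, 6.60, 7.80 and 7.31 CPM in ND-75KD replicates 1 to 4, against 9.42, 7.42, 9.31 and 8.94 CPM in Control replicates 1 to 4 (-0.22, SE 0.13, adjusted p = 0.217). mRpS18C had 9.98, 7.90, 7.72 and 9.27 CPM in ND-75KD replicates 1 to 4, against 8.23, 15.1, 10.4 and 9.06 CPM in Control replicates 1 to 4 (-0.29, SE 0.19, adjusted p = 0.265). None of the 3 passed in edgeR or in DESeq2, voom called mRpS18A lower, 1 had an unadjusted p under 0.05 in edgeR, and in each the groups overlapped. The fold change without Control replicate 2 was -0.25 for mRpS18A and -0.08 for mRpS18C, and without Control replicate 1 that of mRpS18B was -0.15. mRpS18A passed without Control replicate 1 (adjusted p = 0.0411) or Control replicate 4 (adjusted p = 0.0459). The signs of mRpS18B and mRpS18C turned with library totals as the only scaling, to 0.089 for both. mRpS30, whose mammalian counterpart likewise lies in the large subunit, had 44.8, 46.9, 43.3 and 45.4 CPM in ND-75KD replicates 1 to 4, against 55.7, 37.4, 46.0 and 45.8 CPM in Control replicates 1 to 4 (-0.04, SE 0.12, adjusted p = 0.823). Its value was -0.12 to 0.10 with 1 library left out, positive without Control replicate 1.

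Levels were compared between genes as CPM per kilobase of gene length, over the 8 libraries. The members had a median of 24.5 CPM per kilobase, 25.4 for the large and 22.1 for the small subunit, against 10.5 over all tested genes, and that median stood at the 73.8th percentile of tested genes. Members ranged from 9.46 CPM per kilobase (mRpS18B) to 72.7 (mRpL28). In the large subunit mRpL28 and mRpL30 (44.3 CPM per kilobase) were highest and mRpL11 (13.0) and mRpL21 (10.1) lowest. In the small subunit mRpS9 (48.5) and mRpS5 (42.7) were highest and mRpS24 (10.3) and mRpS18B lowest. The fold change was not ordered by the level across the 72 genes (Spearman's rho -0.040, a description over genes that share the same libraries).

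mRpL28, the most abundant, had 80.0, 75.3, 80.0 and 77.4 CPM in ND-75KD replicates 1 to 4, against 81.7, 89.3, 100.4 and 96.7 CPM in Control replicates 1 to 4 (log2 fold change -0.24, SE 0.09, adjusted p = 0.066). The groups did not overlap, and the gene passed without Control replicate 2 (-0.24, adjusted p = 0.0486). mRpL30 had 26.5, 26.8, 26.3 and 27.3 CPM in ND-75KD replicates 1 to 4, against 30.1, 48.0, 34.3 and 27.5 CPM in Control replicates 1 to 4 (-0.38, SE 0.16, adjusted p = 0.0817). It was -0.19 without Control replicate 2 (adjusted p = 0.138), and it passed without Control replicate 4 (-0.49, adjusted p = 0.0287). mRpL21 had 18.5, 13.4, 13.2 and 13.5 CPM in ND-75KD replicates 1 to 4, against 12.2, 32.6, 21.1 and 12.6 CPM in Control replicates 1 to 4 (-0.41, SE 0.29, adjusted p = 0.287). Its groups overlapped, and without Control replicate 2 the value was -0.06.

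mRpS5, the homologue of a bacterial protein that bears on the accuracy of decoding, had 63.2, 63.2, 76.3 and 66.5 CPM in ND-75KD replicates 1 to 4, against 67.8, 116.8, 62.3 and 58.2 CPM in Control replicates 1 to 4 (log2 fold change -0.18, SE 0.20, adjusted p = 0.516). Its sign rested on 1 library, since it was 0.10 without Control replicate 2. mRpS24, the counterpart of bacterial S3 in mammals, had 4.62, 5.10, 5.22 and 4.76 CPM in ND-75KD replicates 1 to 4, against 5.69, 13.5, 5.80 and 4.97 CPM in Control replicates 1 to 4 (-0.58, SE 0.29, adjusted p = 0.146). Without Control replicate 2 it was -0.15, and 55.3% of its exon bases are shared with TBC1d7 on the opposite strand.

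The balance between the subunits was set out as the summed counts of the large subunit genes over those of the small subunit genes, a ratio that does not depend on the scaling. It was 1.86, 1.81, 1.79 and 1.81 in ND-75KD replicates 1 to 4, against 1.71, 1.84, 1.84 and 1.75 in Control replicates 1 to 4 (1.82 ± 0.0276 in ND-75KD and 1.79 ± 0.0685 in Control, SD, n = 4 each), and the groups overlapped. Counted per kilobase of gene length, it was 2.08, 2.08, 2.06 and 2.05 in ND-75KD replicates 1 to 4, against 1.99, 2.01, 2.04 and 1.96 in Control replicates 1 to 4. Those groups did not overlap, with means of 2.07 and 2.00, but they nearly met, at 2.048 in ND-75KD replicate 4 and 2.044 in Control replicate 3. With mRpS18A and mRpS30 counted in the large subunit, where their mammalian counterparts lie, the ratio was 2.22, 2.20, 2.15 and 2.18 in ND-75KD replicates 1 to 4, against 2.07, 2.08, 2.16 and 2.07 in Control replicates 1 to 4. With those genes moved the groups overlapped. The ratio is a description and was not tested.

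Mitochondrial ribosomal protein genes are short, and in these libraries short genes were lower in ND-75KD heads as a whole. Gene lengths in the table ran from 327 to 2078 bases over the members, with a median of 783 bases (786.5 in the large and 756 in the small subunit), against 2096 bases over all tested genes, and all 72 were shorter than the median tested gene. The 4885 tested genes in the members' length range had a median log2 fold change of -0.20, and 26.6% of them were called lower. Without Control replicate 2 the median of these genes was -0.107, and that of the members was -0.26, so the shift of short genes also rested in part on that library. The decile values below are from all 8 libraries. Across all tested genes the fold change was related to length with a rho of 0.349, and across the members with a rho of 0.188, both as descriptions over genes of the same libraries.

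In the shortest decile of tested genes (65 to 801 bases) the 40 members had a median of -0.41 and 12 were called lower, against a median of -0.37 and 28.8% called lower over the decile. In the next decile (802 to 1124 bases) the 17 members had a median of -0.45 and 7 were called lower, against -0.28 and 28.8%. In the decile after that (1125 to 1423 bases) the 11 members had a median of -0.36 and 7 were called lower, against -0.20 and 25.3%. Of the longest members, 3 lay between 1424 and 1730 bases (median -0.41, 1 called lower, against -0.15 and 27.8%), and 1, mRpS30, had 2078 bases and -0.04, against -0.06 and 21.1% in its decile. The members of the shortest decile, the greater part of the 72, thus lay close to genes of like length, and the members of the next 3 deciles had medians below those of their deciles.

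**Figure D5:**
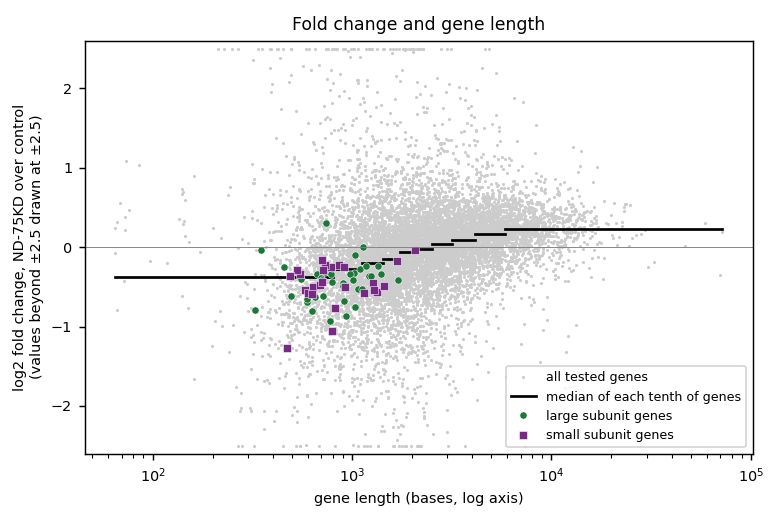
Log2 fold change, ND-75KD over Control, against gene length (log axis) for all tested genes (grey), large subunit genes (green circles) and small subunit genes (purple squares); black steps are the median of each length decile of tested genes. The medians run from -0.37 in the shortest to 0.23 in the longest decile, and all members lie in the shorter part, between 327 and 2078 bases.

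When the trend of counts on length was taken out of each library, the members' median was -0.20, at -0.19 for the large and -0.24 for the small subunit, against -0.01 over all tested genes. In that fit 65 of 72 members were below 0, and 18 were called lower (against 19.8% of tested genes) and 1 higher (against 15.6%). Those called lower were 12 large and 6 small subunit genes, and 17 of the 18 were among the 27. mRpL45, mRpS22, mRpS29 and mRpS9 kept their calls there, with log2 fold changes of -0.36, -0.40, -0.35 and -0.39. Without Control replicate 2 and with the length trend removed, a fit added after the data were seen, 20 members were called lower (against 19.8% of tested genes), with a median of -0.20.

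By the mammalian nomenclature, 14 of the 29 genes for proteins named as particular to mitochondria were called lower (48.3%, median -0.48), and 13 of the 43 for proteins named after a bacterial counterpart (30.2%, median -0.36), against 18.9% of all tested genes. The 29 include mRpS18A and mRpS18B, which are related to bacterial S18 but are named as particular to mitochondria there. With the length trend removed the counts were 12 of 29 (median -0.25) and 6 of 43 (median -0.16), against 19.8% of tested genes, so that the 6 of 43 were no larger a share than over all genes. The difference between these groups was not tested. Of 14 counterparts of human genes linked to mitochondrial disease, 7 were called lower, against 18.9% of all tested genes, with a median of -0.40. These were mRpL3, mRpL44, mRpS14, mRpS22, mRpS25, mRpS28 and mRpS34. With the length trend removed 3 of the 14 were lower and 1 higher (median -0.20), against 19.8% and 15.6% of tested genes, and the share was then near that of all genes. mRpL50, which had the opposite sign, is also in that list.

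bonsai and tko encode 2 more proteins of the mitochondrial small subunit under other names. bonsai, the counterpart of S15, had 22.2, 22.6, 26.8 and 25.8 CPM in ND-75KD replicates 1 to 4, against 24.9, 23.8, 23.0 and 21.6 CPM in Control replicates 1 to 4 (log2 fold change 0.06, SE 0.10, adjusted p = 0.645). tko, the counterpart of S12, is known for the bang-sensitive seizures of its mutants. It had 18.6, 17.4, 20.0 and 19.2 CPM in ND-75KD replicates 1 to 4, against 18.01, 35.68, 24.19 and 17.03 CPM in Control replicates 1 to 4 (-0.33, SE 0.21, adjusted p = 0.244). The fold change of tko was -0.06 without Control replicate 2, and that of bonsai lay between 0.02 and 0.14 with 1 library left out. Neither passed in edgeR, DESeq2 or voom, 0 of the 2 had an unadjusted p under 0.05 in edgeR, and the groups overlapped for both.

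The rRNAs of the same ribosome varied most in Control. mt:srRNA, the rRNA of the small subunit, had 143, 129, 152 and 144 CPM in ND-75KD replicates 1 to 4, against 120, 840, 290 and 175 CPM in Control replicates 1 to 4 (adjusted p = 0.0599). mt:lrRNA, that of the large subunit, took 5.43%, 4.58%, 6.05% and 7.40% of counted reads in ND-75KD replicates 1 to 4, against 6.15%, 23.9%, 9.001% and 5.36% in Control replicates 1 to 4 (adjusted p = 0.0655). Counts of mt:lrRNA were 302 (Control replicate 4) to 516 (Control replicate 1) times those of mt:srRNA. The counts are therefore not read here as amounts of 1 rRNA relative to the other. Control replicate 2 was the highest for both, and leaving it out gave fold changes of -0.45 for mt:srRNA and -0.43 for mt:lrRNA, with adjusted p of 0.154 and 0.183. Both passed without Control replicate 1 (adjusted p of 0.0191 for mt:srRNA and 0.0414 for mt:lrRNA) and without Control replicate 4 (0.0321 for mt:srRNA and 0.0289 for mt:lrRNA).

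Few other genes of mitochondrial translation passed the test. Of 9 translation factors, mEFTu2, an elongation factor that brings aminoacyl-tRNA to the ribosome, fell (log2 fold change -0.72, SE 0.13, adjusted p = 0.00225) and mRF1, a release factor, rose (0.47, SE 0.13, adjusted p = 0.0218). The median of the 9 was -0.00095. Of 15 mitochondrial aminoacyl-tRNA synthetase genes, PheRS-m fell (-0.42, SE 0.12, adjusted p = 0.0211), and the median was -0.14. Of 11 tested genes of mitochondrial transcription and RNA handling, Lrpprc2 fell (-0.42, SE 0.12, adjusted p = 0.0263), and the median was -0.17. The shares called lower in these lists were 11.1%, 6.67% and 9.09%, against 18.9% of all tested genes. These genes are longer than the members, with median lengths of 1711, 2552 and 1999 bases. None of the 13 mitochondrially encoded protein genes passed in edgeR or voom, nor any of the 10 to which DESeq2 gave an adjusted p, and 1 had an unadjusted p under 0.05 in edgeR, although all 13 were below 0, with a median of -0.87 and Control replicate 2 high. For comparison, 82 of 84 cytosolic ribosomal protein genes were called lower, with a median of -0.97. Of 32 complex I genes, the knockdown target ND-75 included, 28 were called lower, with a median of -0.66.

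The members lie on all the large chromosome arms, 21 on 3R, 17 on 3L, 12 on 2L, 11 on 2R and 11 on X. Those called lower were 8 on 3R (against 18.8% of the tested genes of that arm), 6 on 3L (17.8%), 3 on 2L (19.7%), 4 on 2R (19.4%) and 6 on X (19.7%). In the Ensembl fly annotation, matched by identifier for 71 of the 72, 56 members (78.9%) had the start of a protein-coding gene on the other strand within 1000 bases upstream, against 38.4% of tested genes. Of these 56 members 18 were called lower, against 17.1% of all tested genes with such a neighbour, and of the 15 members without one 9 were, against 20.1%. Of the 51 neighbours that were tested, 7 were called lower (13.7%) and 6 higher (11.8%), near the 18.9% and 14.3% of all tested genes. Among the neighbours of called members, only those that were themselves called are named here, and the rest were not called or not tested. CG8079 beside mRpL41 (-0.66) and Uba4 beside mRpL51 (-0.37) were lower together with the member. CG9626 beside mRpL1 (1.03), PIG-N beside mRpL42 (0.71), hzg beside mRpS31 (1.30) and Cip4 beside mRpS6 (0.35) were higher while the member was lower.

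Exons of 41 of the 71 members (57.7%) overlapped exons on the opposite strand, against 33.6% of tested genes. Of those 41 members 19 were called lower (median -0.44), against 18.5% of all tested genes with such an overlap, and of the 30 without overlap 8 were (median -0.38), against 19.2%. The shared stretch was over 10% of the exon bases for 8 members. Since a strand setting of the counting is not given, how reads from a shared stretch were counted is not known.

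Marker genes of several cell types differed between the genotypes. Neuron markers summed to 5543 to 6037 CPM in ND-75KD and 3982 to 5252 CPM in Control, with 9 of 15 called higher (over all tested genes 14.3% were higher and 18.9% lower). These neuron markers are long, with a median of 7190 bases. With the length trend removed 6 were called higher and 0 lower, against 15.6% and 19.8% of tested genes. Their median log2 fold change was 0.36 before and 0.17 after that removal. Fat body markers summed to 2192 to 3258 CPM in ND-75KD and 4836 to 7831 CPM in Control, with 5 of 8 called lower and 2 higher, and photoreceptor markers to 30540 to 36510 CPM in ND-75KD and 41240 to 58850 CPM in Control, with 6 of 11 lower. Glia markers summed to 2944 to 3367 CPM in ND-75KD and 3495 to 4467 CPM in Control (4 of 11 lower, 1 higher), muscle markers to 10020 to 11080 CPM in ND-75KD and 9006 to 14170 CPM in Control (1 of 9 tested lower, 1 higher), and hemocyte markers to 215 to 233 CPM in ND-75KD and 282 to 310 CPM in Control (4 of 5 tested lower). The hemocyte gene He and the flight muscle gene TpnC4 were at or near 0 in all libraries. The part of these differences in the levels of the mitochondrial ribosomal protein genes was not tested.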

How the data were processed

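RNA of 8 head pools was sequenced as paired-end reads from a NEBNext Ultra library. Per the labels, the authors used fastp, HISAT2 and featureCounts, and the deposited counts are raw reads per gene. Versions and a strand setting are not given in the sources used here. Gene length, in bases, is the authors' deposited value and equals the exon length for all 71 members matched in Ensembl BDGP6.54 release 115. Size-factor and length-normalized values, 16 columns in all, and the authors' own fold changes and p-values were not used.

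The analysis used edgeR 4.0.16 (R 4.3.3) on counts after filterByExpr (minimum count 10, minimum total count 15), TMM scaling and the quasi-likelihood test, with Benjamini-Hochberg adjustment over 9986 genes and calls at 0.05. The SE is the fold change over the square root of F. The biological coefficient of variation was 0.171. Members had 71 to 2391 reads in a library, and library totals were 17448199 to 24680283. Alternatives were DESeq2 1.42.0, DESeq2 size factors, upper quartile scaling, mitochondrially encoded genes left out, no filter, at least 10 reads in every library, limma 3.58.1 voom with sample quality weights, loess removal of the length trend (span 0.5), glmTreat against a fold of 1.2, a block for the replicate number, and each library in turn left out. Library totals as the only scaling, with and without mitochondrially encoded genes, and the length trend without Control replicate 2 were added after the data were seen. The fits were also tested on simulated counts with 1 coefficient of variation for all genes. Those counts held no length trend and no library like Control replicate 2, so that test does not cover these features.

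Members and lists were chosen with earlier results of these data known, and mRpL47 was placed with the counterparts of bacterial proteins and at the tunnel exit after its values were seen. Genes described one by one were the 12 called members of lowest adjusted p, members called higher, the 2 highest and 2 lowest per kilobase in each subunit, mRpL10, mRpL11, mRpL12, mRpS18A, mRpS18B, mRpS18C, mRpS30, any member not tested, bonsai, tko, mt:lrRNA, mt:srRNA and ND-75. Promoter motifs were not analysed here.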

Additional observations from a re-analysis of the deposited data

Results flagged for a closer look

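In each group of 4 libraries the highest or lowest value was singled out where its gap to the nearest other library, over the group's range, passed Dixon's 95% critical value, which chance alone gives in about 1 in 20 groups. Over the 72 members this marked 3 in ND-75KD and 5 in Control, and for each of those 5 genes Control replicate 2 was the highest.

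Among the genes described one by one, mRpL16 was lowest in ND-75KD replicate 3, at 14.48 CPM against 16.95 to 17.35 CPM in the other ND-75KD libraries. mRpL21 was highest in ND-75KD replicate 1, at 18.47 CPM against 13.19 to 13.48 CPM in the others. In Control replicate 2, mRpS5 had 116.8 CPM against 58.23 to 67.79 CPM in the other Controls, mRpS24 had 13.49 CPM against 4.974 to 5.801 CPM, and mt:lrRNA had 367300 CPM against 52710 to 95820 CPM. ND-75 itself was lowest in ND-75KD replicate 3, at 281.9 CPM against 312.1 to 315.6 CPM. The ratio of large to small subunit counts, with mRpS18A and mRpS30 counted in the large subunit, was highest in Control replicate 3, at 2.16 against 2.068 to 2.076 in the other Controls.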

How the results depend on the processing

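Counts of members called lower were within 1.5 times the 27 reported with DESeq2 (31), DESeq2 size factors (22), upper quartile scaling (20), mitochondrially encoded genes left out (21), no filter (26), at least 10 reads in every library (21), and the length trend removed (18), where 13.5% to 19.8% of all genes tested were lower. For the small subunit alone the length trend removed left 6. voom with sample quality weights called 42 (27 large, 15 small, against 23.5% of tested genes). glmTreat against a fold of 1.2 called 6 (3 large, 3 small), or 8.33% against 11.2% of tested genes, and library totals as the only scaling called 1 (1 large, 0 small), or 1.39% against 6.34%. With library totals over nuclear genes the count was 6 (4 large, 2 small), or 8.33% against 10.7%, and the median of all tested genes was 0.22. Leaving out 1 library gave 9 to 39 members, 4 to 24 large and 5 to 15 small (12.5% to 54.2% of members, against 12.9% to 19.7% of tested genes), and 7 members were called in all 8 such fits. Replicate numbers did not pair the libraries, since the correlations of same-numbered libraries were -0.112, -0.0415, -0.0110 and 0.0264. With the number as a block 17 were called (10 large), or 23.6% against 15.6%, and with the block and the length trend removed 14 (9 large, 5 small), or 19.4% against 17.3%.

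The count of members called higher, 0 in the analysis reported, was 1 (1 large) with DESeq2, DESeq2 size factors, upper quartile scaling, mitochondrially encoded genes left out, at least 10 reads in every library, voom, the length trend removed with or without the block, and library totals with or without mitochondrially encoded genes, and it was 0 to 1 with 1 library left out. The median fold change was -0.20 (large -0.19, small -0.24) with the length trend removed, -0.19 (large -0.19, small -0.24) with the block as well, and -0.20 (large -0.19, small -0.22) also without Control replicate 2. It was -0.048 (large -0.018, small -0.11) with library totals and -0.16 (large -0.15, small -0.22) with totals over nuclear genes. With 1 library left out it was -0.49 to -0.26, large -0.49 to -0.25 and small -0.51 to -0.28.

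Among the genes described one by one, signs turned in members that were not called, and in tko. With library totals, log2 fold changes were 0.090 (mRpL28), 0.055 (mRpL11), 0.0026 (mRpL21), 0.22 (mRpS5), 0.089 (mRpS18B), 0.094 (mRpL12), 0.089 (mRpS18C), 0.27 (mRpS30) and 0.066 (tko), and over nuclear genes 0.076 (mRpS5), 0.010 (mRpS18B) and 0.19 (mRpS30). mRpS5 was 0.00089 with voom, and -0.29 to 0.10 with 1 library left out, positive without Control replicate 2. With the length trend removed and without Control replicate 2, mRpS5 was 0.18, mRpL21 0.019 and tko 0.019. mRpS30 was 0.018 with the length trend removed, 0.034 with the block as well, and -0.12 to 0.10 with 1 library left out, positive without Control replicate 1. The cause was not tested. Of 634 comparisons of single genes with alternatives, 550 kept direction and call, 49 lost the call, 15 gained it and 20 changed sign.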
